A study of Mus musculus with 18 samples.

Results

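The genes described here are HECT-type ubiquitin ligases of the NEDD4 family that were measured in the mouse left ventricle, together with their adaptors. They were taken by symbol and comprise 8 ligases (Wwp2, Wwp1, Itch, Nedd4, Nedd4l, Smurf1, Smurf2 and Hecw2) and 2 adaptors (Ndfip1 and Ndfip2), 10 of the 51435 genes in the deposited tables. All 10 passed the filter on low counts. Hecw1, a further ligase of the family, is not among the 10 and was tested in the list of other HECT ligases. Poly(A)-selected RNA of left ventricle tissue was sequenced from 9 WT and 9 WWP2Mut/Mut mice. Both groups were male littermates on a C57BL/6J-based background, and all 18 had received angiotensin II (AngII) at 500 ng/kg/min for 28 days from a pump implanted at 8 weeks of age, so no mouse without AngII enters any value below. WWP2Mut/Mut mice are homozygous for a germline deletion of 4 bases made with CRISPR/Cas9, which shifts the reading frame and is carried by every cell type of the ventricle. The question put to these genes was whether any relative or adaptor of Wwp2 was raised where Wwp2 itself was mutated.

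Ligases of the NEDD4 family carry an amino-terminal C2 domain that binds membranes, a run of WW domains that recognise proline-rich PY motifs in substrates and adaptors, and a carboxy-terminal HECT domain that takes ubiquitin from an E2 enzyme and passes it to the substrate. Because the WW domains of the members are alike, several members can act on the same substrate in vitro, among them the Smad proteins that carry TGFβ signals and channels of the heart muscle membrane. Ndfip1 and Ndfip2 are membrane proteins whose PY motifs bind these WW domains, recruit the ligases to endosomes and relieve their autoinhibition.

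The deletion lies in the second coding exon of Wwp2 (ENSMUSG00000031930, plus strand of chromosome 8, GRCm38), which is exon 3 of the 24 exons of the full-length transcript Wwp2-201 and spans bases 107457443 to 107457590. The 4 bases that the study names as deleted occur once in that exon and overlap the single BsaAI site it uses for genotyping. Their position was found here by that match, not read from the libraries. The reference sequence of the 30 bases around them, chr8:107457479-107457508, is shown because it fixes which transcripts can carry the frameshift, with the deleted bases in capitals.

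Wwp2 coding exon 2: ccagaatcaactcCTACgtggaggtggcag

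The first deleted base is position 120 of the coding sequence. The exon is part of 5 of the 11 transcripts that GENCODE M21 annotates for Wwp2, the full-length Wwp2-201 (4314 bases) and the protein-coding Wwp2-204 (2758 bases) among them. It is not part of Wwp2-205 (1996 bases), a protein-coding transcript that starts at base 107545012, downstream of the deletion, and encodes the carboxy-terminal part with the HECT domain. According to the study, a frameshift here would leave the full-length and amino-terminal isoforms without function and probably spare the carboxy-terminal one. In mutant hearts it reports loss of the transcripts with the amino-terminal region by qPCR. It also reports loss of both proteins, with the carboxy-terminal protein unaffected. The gene-level values below do not separate these isoforms.

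Levels and differences are given on separate scales. TPM is the authors' level per transcript length, with which genes can be compared with one another. The log2 fold change is from edgeR on the expected counts, WWP2Mut/Mut minus WT, with lane and RNA concentration as covariates, and a gene was called at an FDR below 0.05. The labelled tissue was checked against markers. The 8 ventricular cardiomyocyte markers, several of which atrium expresses too, were above 0 in every mouse and summed to 46835 to 59001 TPM in WT and 44368 to 58057 TPM in WWP2Mut/Mut, and none of them was called. The 5 atrial markers summed to 379 to 1108 TPM in WT and 318 to 1181 TPM in WWP2Mut/Mut, with Bmp10 and Sln listed at 0 in at least 1 mouse, and with their level as a covariate the log2 fold change of Wwp2 was -1.40 and no other member was called. Library totals ranged from 24566994 to 37451087 counts. The deposited sample sheet lists an RNA concentration of 1.68 ng/µl for WT mouse 43-3, whereas the other 17 mice lie at 88.6 or above, and without this mouse no call on a member changed.

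Wwp2, the targeted gene, was lower in WWP2Mut/Mut than in WT. In WT its level was 3.83 TPM at the lowest, 5.10 at the median and 6.01 at the highest, with a mean of 5.09 ± 0.60 (SD, n = 9). In WWP2Mut/Mut the lowest was 1.19, the median 1.58 and the highest 3.00 TPM, with a mean of 1.72 ± 0.53 (SD, n = 9). The groups did not overlap, and the highest WWP2Mut/Mut mouse, 52-1, stood apart from the other 8, of which the next reached 1.90 TPM. The expected counts behind these levels were 581 to 945 in WT and 166 to 387 in WWP2Mut/Mut, so transcripts of the mutated gene were still detected in every mutant mouse. As the samples are pieces of whole tissue, fewer Wwp2-expressing cells and less Wwp2 RNA per cell cannot be told apart by the level of Wwp2 alone. The median log2 fold change of the markers was -0.16 for fibroblasts (8 genes, 7 of them negative), -0.01 for endothelium (6) and 0.01 for macrophages and leukocytes (6). It was 0.10 for smooth muscle and pericytes (6), 0.17 for erythrocytes (5) and -0.87 for adipocytes (4 genes, all 4 negative), whose markers summed to 0.04 to 19.8 TPM in WT and 0.18 to 10.4 TPM in WWP2Mut/Mut with Adipoq and Lep listed at 0 in at least 1 mouse. The fibroblast markers summed to 200 to 561 TPM in WT (median 389) and 238 to 444 TPM in WWP2Mut/Mut (median 310). None of the markers of these cell types was called, and the part of fibroblast and adipocyte RNA in the Wwp2 result was not tested.

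The log2 fold change of Wwp2 was -1.40 with an SE of 0.157 (edgeR, adjusted p = 0.00113), which leaves 37.9% of the WT level with a 95% interval of 30.2% to 47.7%. Wwp2 was the only gene called among the 24804 tested, 0.00403% of them, and 908 genes (3.66%) had an unadjusted p under 0.05. The exact two-sided permutation test of TPM gave p = 4.11e-05, the smallest that the 48620 divisions into 9 and 9 mice can give. Wwp2 was also the only one of the 24804 genes whose TPM in every WT mouse was above that in every mutant mouse (0.00403%).

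The difference was present in each of the 4 sequencing lanes, which hold 2 or 3 mice of each genotype. Lane 1 had 4.33 TPM in WT and 2.20 TPM in WWP2Mut/Mut, the smallest contrast, and it is the lane of mouse 52-1. In lane 2 the means were 5.50 and 1.55 TPM, in lane 3 they were 5.46 and 1.57 TPM, and in lane 4 they were 5.08 and 1.64 TPM. With mouse 52-1 left out, the log2 fold change was -1.61, the largest over all mice left out in turn.

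The call of Wwp2 was lost in 1 alternative. It concerns markers of liver, a tissue not labelled here. Their summed level ran from 0.21 to 205.5 TPM in WT and from 0.76 to 34.9 TPM in WWP2Mut/Mut, so that the groups overlapped. All 7 of the 7 markers had a negative log2 fold change with an unadjusted p under 0.05, none was called by edgeR, and 5 of them (Apoa1, Apob, Fga, Fgb and Serpina1a) were listed at 0 in at least 1 mouse. With the level of these markers as a covariate, the log2 fold change of Wwp2 was -1.28 (95% interval -1.68 to -0.89) and its adjusted p was 0.0597 in edgeR. Their part in the result was not tested beyond this fit.

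**Figure D1:**
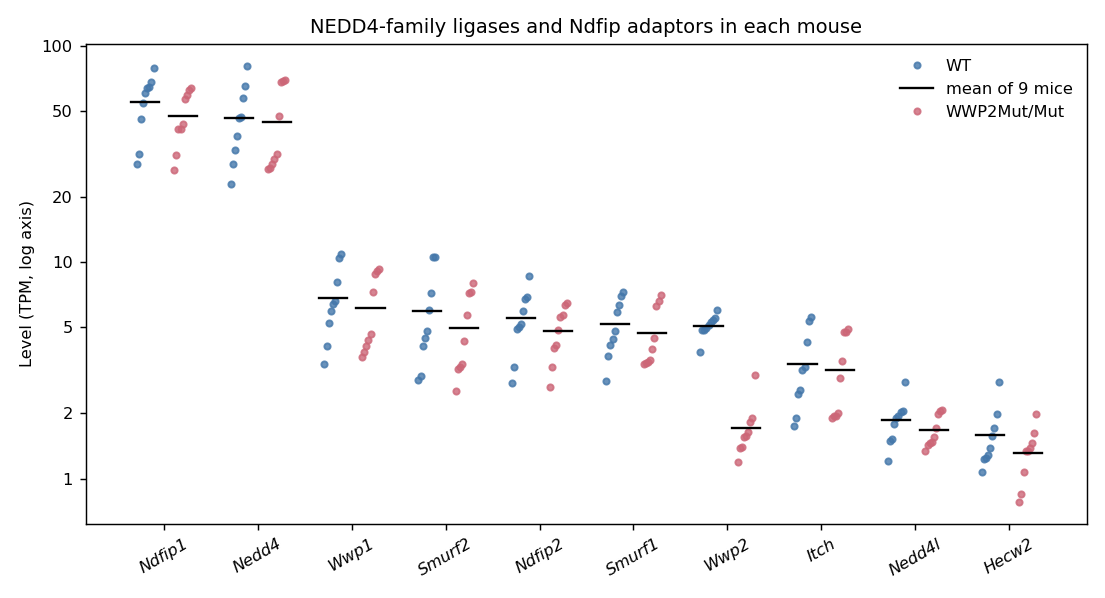
Level of each member in each mouse, in TPM on a log axis, with genes ordered by their mean in WT. Each point is 1 of 9 mice per genotype and each bar the mean of 9. WT and WWP2Mut/Mut points are separate for Wwp2, with WT from 3.83 to 6.01 TPM and WWP2Mut/Mut from 1.19 to 3.00 TPM, and overlap for the other 9 genes.

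No relative or adaptor of Wwp2 was called higher in WWP2Mut/Mut. Of the 9 other members, 0 were called by edgeR in either direction (background 0.00403% of genes, and 0% in the direction of higher in WWP2Mut/Mut), 0 had an unadjusted p under 0.05, and DESeq2 called 0 as well. Their log2 fold changes ran from -0.31 to -0.04 with a median of -0.10, where the median of all genes tested was -0.01. All 9 point estimates were negative, and 52.2% of all genes tested were. That of the family ligase Hecw1, not counted among the members and at 0.11 TPM or less, was 0.36 (95% interval -1.88 to 2.61). The sign of Ndfip1 and Hecw2 was negative in all 31 alternatives each, and that of the other 7 genes was not. With gene body coverage as a further covariate only 3 of the 9 were negative and the median was 0.01. Without covariates and with lane as the only covariate, 5 of the 9 were negative. With the liver marker level as a covariate 8 of the 9 were negative with a median of -0.26, and with limma on TPM all 9 were, with medians from -0.27 to -0.22 over the 3 fits.

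How large a rise these data still allow is given by the intervals. The upper ends of the 95% intervals corresponded to between 1.11-fold and 1.32-fold of the WT level across the 9 genes, and with gene body coverage as a covariate to between 1.06-fold and 1.21-fold. The highest upper end was 1.41-fold with lane as the only covariate, 1.45-fold on rescaled TPM and 1.47-fold without WWP2Mut/Mut mouse 24-3, the highest of all alternatives with an interval. On simulated counts, 96% of 100 genes changed by 1 on the log2 scale were recovered over 24109 genes. Whether the simulated spread matched that of the 9 members was not tested, so this value does not give the power for a member. Smaller rises than these upper ends could not be told from none.

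Wwp1 and Itch, with Wwp2, form the branch of the family that is closest to Wwp2 in sequence. Wwp1 had 3.38, 6.38 and 10.9 TPM in WT and 3.65, 4.66 and 9.33 TPM in WWP2Mut/Mut, each as the lowest, median and highest of 9 mice. The groups overlapped over almost the whole range, and the means were 6.79 ± 2.61 and 6.13 ± 2.47 TPM. The log2 fold change of Wwp1 was -0.11 (95% interval -0.48 to 0.25), and the exact permutation test of TPM gave p = 0.583.

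Itch, which limits T cell activation and targets JunB, had 1.75, 3.18 and 5.57 TPM in WT and 1.91, 2.92 and 4.92 TPM in WWP2Mut/Mut in the same order. Its means were 3.36 ± 1.40 and 3.18 ± 1.33 TPM. The log2 fold change was -0.08 with the interval -0.56 to 0.40, whose upper end was the highest of the 9 genes, and the exact permutation test gave p = 0.776. Within lanes, the mutant mean of Itch on the log2 CPM scale was higher in 3 of 4 lanes and that of Wwp1 in 2 of 4.

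Nedd4, the founding member, is a broadly expressed ligase that acts on growth factor receptors, and it was by far the most abundant ligase of the family in this tissue. It had 22.9, 46.2 and 80.6 TPM in WT and 27.0, 31.7 and 69.4 TPM in WWP2Mut/Mut. The mutant median lay below that of WT while the means, 46.5 ± 18.6 and 44.2 ± 19.4 TPM, were close. The log2 fold change was -0.04 (95% interval -0.45 to 0.37, exact permutation p = 0.795 for TPM).

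Nedd4l, which removes epithelial and cardiac sodium channels from the membrane, was 1 of the least abundant ligases. Its levels were 1.21, 1.90 and 2.80 TPM in WT and 1.34, 1.55 and 2.08 TPM in WWP2Mut/Mut. The means were 1.86 ± 0.45 and 1.68 ± 0.29 TPM, and the log2 fold change of -0.04 had the narrowest interval of the family, -0.26 to 0.17 (exact permutation p = 0.340 for TPM).

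Smurf1 and Smurf2 take their name from ubiquitination of Smad proteins and act on TGFβ and BMP receptors through Smad7. Smurf1 had 2.83, 4.80 and 7.28 TPM in WT and 3.37, 3.97 and 7.07 TPM in WWP2Mut/Mut, with a log2 fold change of -0.07 (95% interval -0.36 to 0.23). Smurf2 had 2.84, 4.80 and 10.5 TPM in WT and 2.54, 4.31 and 8.02 TPM in WWP2Mut/Mut, with a log2 fold change of -0.15 (95% interval -0.63 to 0.32). Neither difference was below 0.05 in the exact permutation test of TPM (p = 0.512 and 0.436).

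Hecw2, a ligase that stabilises the p53 relative p73, was the least abundant member in both genotypes. It had 1.07, 1.38 and 2.80 TPM in WT and 0.78, 1.34 and 1.99 TPM in WWP2Mut/Mut. Its log2 fold change of -0.31 was the lowest of the 9 genes, with an interval of -0.79 to 0.16 and an unadjusted p of 0.183 in edgeR (exact permutation p = 0.242 for TPM). It was negative in every alternative computed, between -0.43 and -0.08.

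Of the adaptors, Ndfip1 had 28.4, 60.3 and 78.8 TPM in WT and 26.7, 43.5 and 63.8 TPM in WWP2Mut/Mut. In WT 3 mice were above every mutant mouse, and only 2 mutant mice were above the WT median. The means were 55.1 ± 16.9 and 47.2 ± 13.7 TPM, the log2 fold change was -0.16 (95% interval -0.46 to 0.15), and the exact permutation test gave p = 0.292. On the log2 CPM scale the mutant mean of Ndfip1 was lower in each of the 4 lanes, by values from -0.14 to -0.03. Ndfip2 was about an order of magnitude lower, with 2.77, 5.17 and 8.62 TPM in WT and 2.66, 4.83 and 6.50 TPM in WWP2Mut/Mut, and its log2 fold change was -0.10 (95% interval -0.41 to 0.20, exact permutation p = 0.364 for TPM).

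**Figure D2:**
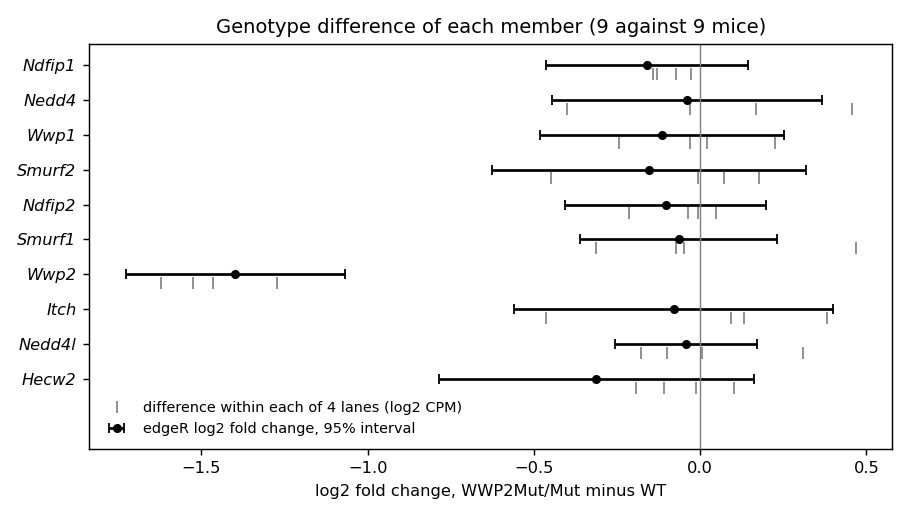
Log2 fold change of each member, WWP2Mut/Mut minus WT, from edgeR with its 95% interval (black, 9 against 9 mice), and the difference of mean log2 CPM within each of the 4 lanes (grey ticks). The interval of Wwp2 runs from -1.73 to -1.07, and the other 9 intervals all include 0.

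The levels of the members spread over more than an order of magnitude, and the order of means was the same in both genotypes apart from Wwp2. In WT the order by mean TPM was Ndfip1 (55.1), Nedd4 (46.5), Wwp1 (6.79), Smurf2 (5.93), Ndfip2 (5.49), Smurf1 (5.15), Wwp2 (5.09), Itch (3.36), Nedd4l (1.86) and Hecw2 (1.59). Of the 9 pairs of neighbours, 5 differed in the exact sign-flip permutation test on log2(TPM + 1) within mice after adjustment over the 9 pairs. These were Ndfip1 over Nedd4 (adjusted exact p = 0.0281), Nedd4 over Wwp1 (0.0176), Wwp1 over Smurf2 (0.0234), Wwp2 over Itch (0.0281) and Itch over Nedd4l (0.0176). Neighbours within the run of Smurf2, Ndfip2, Smurf1 and Wwp2 did not differ in this test, nor did Nedd4l and Hecw2. Nedd4 exceeded Wwp1 in 9 of 9 mice by 2.58 ± 0.13 on the log2 scale (SD). The smallest p that 9 mice allow in this test is 0.00391 before adjustment. With 1 WT mouse other than 25-3 or 43-3 left out, 3 pairs differed in place of 5. The WT order itself was unchanged in 18 of the 20 alternatives that kept the assigned lengths and changed without 25-3 or 43-3. The mutant order was unchanged in 15 of 20 and changed without WWP2Mut/Mut mouse 24-3, 33-1, 52-1, 54-1 or 8-2.

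In WWP2Mut/Mut, Wwp2 stood between Itch (3.18 TPM) and Nedd4l (1.68 TPM). Itch was above Wwp2 in 8 of 9 mutant mice (adjusted exact permutation p = 0.0615), and Wwp2 and Nedd4l could not be ordered (adjusted exact permutation p = 0.945). Ndfip1 was above Nedd4 in only 5 of the 9 mutant mice (adjusted exact permutation p = 0.305).

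The top of this order depends on the length behind TPM. For 339 genes with a single annotated transcript, the ratio of count to TPM returned the annotated length to within a median of 0.59 bases or less in every library, and the same scale gave the length assigned to each member. These annotated lengths are from GENCODE M21, a later release than the authors used, and they can differ from theirs. Nedd4l had 8136 to 8187 bases, more than the 7787 of its longest transcript in M21. Ndfip1 had 930 bases in every mouse, whereas its longest annotated transcript has 4364 bases. When each gene was given its longest annotated transcript, an alternative chosen after seeing the data, Nedd4 came first with a mean of 43.2 TPM in WT and Ndfip1 second with 9.83 TPM, and Ndfip2 moved down to the ninth place. The order of the ligases among themselves was the same with either length in WT.

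As a description without a test, the 7 ligases other than Wwp2 summed to 36.1, 70.2 and 118.4 TPM (lowest, median and highest) in WT and 41.6, 49.6 and 102.2 TPM in WWP2Mut/Mut. Wwp2 made up 7.29% ± 1.97 of the summed ligase level in WT and 2.98% ± 1.70 in WWP2Mut/Mut (SD, n = 9 each). Nedd4 made up 60.3% ± 2.5 and 64.2% ± 2.8.

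Of the 9 members other than Wwp2, 7 varied from mouse to mouse with a quality measure. The deposited sample sheet gives each mouse a value named for coverage of the lower part of the gene body, whose exact definition is not given in the sources used here. It ran from 0.0288 to 0.0540 in WT and from 0.0313 to 0.0526 in WWP2Mut/Mut. Within the 9 WT mice, 7 members (Wwp1, Itch, Nedd4, Smurf1, Smurf2, Ndfip1 and Ndfip2) were lower where this value was higher, with Pearson's r from -0.96 to -0.81 on the log2 CPM scale and Spearman's rho from -0.98 to -0.78. The exact permutation p adjusted over the 10 members was 0.0119 or lower for each r and 0.0246 or lower for each rho. Without the 2 mice farthest from the median value, r still lay between -0.95 and -0.73 for these 7. With the values centred within the 4 lanes, a check chosen after seeing the data, r lay between -0.99 and -0.62 for these 7. The exact permutation within lanes has 48 arrangements and cannot go below 0.0208 before adjustment. It gave p = 0.0208 for Ndfip2, 0.333 for Smurf1 and 0.0417 for each of the other 5, and adjusted over the 10 members none of these permutation p-values passed (0.0694 for 6 genes and 0.370 for Smurf1).

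Many genes outside the family had such a relation too. Among the 11336 genes with a mean TPM of 1 or more, 18.7% had a lower r in WT than Smurf1, the weakest of the 7, and 1.57% had a lower r than Nedd4. Nedd4l (r = -0.03, rho = -0.07, adjusted exact permutation p = 0.942 and 0.880) and Hecw2 (r = -0.41, rho = -0.23, adjusted exact permutation p = 0.299 and 0.613) had no relation that passed the test on the log2 CPM scale, where r on log2(TPM + 1) was -0.56 and -0.73. Wwp2 had r = 0.50 and rho = 0.52 in WT on the log2 CPM scale (adjusted exact permutation p = 0.215 and 0.202), but r = -0.70 on log2(TPM + 1), so its sign depends on the scaling, whereas the 7 genes were negative on both scales.

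The mutant mice fell into 2 sets on the same value, 4 mice from 0.0313 to 0.0325 and 5 mice from 0.0434 to 0.0526, so no correlation is given for them. The same 7 members had separate TPM ranges in these 2 sets, as had 33.4% of the 11336 genes with a mean TPM of 1 or more, in the same direction. Nedd4, for instance, had 47.5 to 69.4 TPM in the 4 mice and 27.0 to 31.7 TPM in the 5, and Ndfip1 had 56.7 to 63.8 and 26.7 to 43.5 TPM. Wwp2 ranged from 1.38 to 1.83 TPM in the 4 mice and from 1.19 to 3.00 TPM in the 5, and mouse 52-1 had both the highest Wwp2 level and the highest coverage value of the mutants. With this value as a covariate the log2 fold change of Wwp2 was -1.49 (95% interval -1.76 to -1.23, edgeR adjusted p = 9.99e-06).

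**Figure D3:**
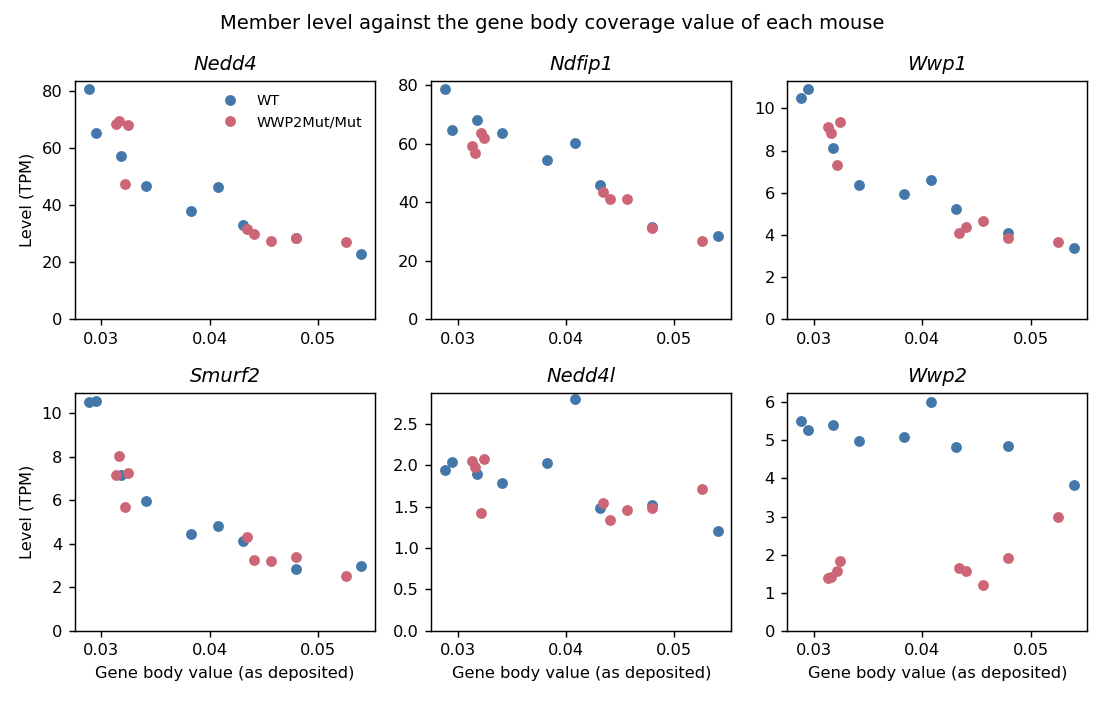
Level of 6 members in TPM against the deposited gene body value of each mouse, with 9 WT and 9 WWP2Mut/Mut mice. Nedd4, Ndfip1, Wwp1 and Smurf2 are lower at higher values in both genotypes, with Nedd4 from 80.6 down to 22.9 TPM in WT, while the 2 genotypes are separate for Wwp2 along the whole axis.

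The genes whose level was most like that of Wwp2 were sought by Pearson's correlation of log2 CPM deviations from the genotype mean over the 18 mice, as a description. Among 11335 genes the first 5 were Mill2 (r = 0.86), 2900076A07Rik (0.85), Ccdc3 (0.84), Wsb1 (0.84) and Wdr4 (0.84). The other members came far down this order. Nedd4l, at r = 0.13, held place 4595, and the other 8 had negative values, the lowest being Wwp1 with r = -0.73 at place 10886. The 36 pairs among the 9 other members had r from -0.29 to 0.98 with a median of 0.75, and 5.69% of all pairs of the 11336 genes were at or above that median. Nedd4l stood apart, with r from -0.29 to 0.41 with the 8 others, and the pairs of Hecw2 ran from 0.07 to 0.67. The points of these correlations share their libraries, their lanes and the coverage value described above. The part of mouse 52-1, which stood apart in its Wwp2 level, in these values was not tested.

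The tables do not separate isoforms, but the length assigned to a gene follows the mix of transcripts to which its reads were assigned, and this measure was not used to choose the genes. For Wwp2 the implied length was 3716, 3808 and 4083 bases (lowest, median and highest) in WT and 3444, 3656 and 4189 bases in WWP2Mut/Mut. The means were 3863 ± 133 and 3701 ± 257 bases (SD, n = 9 each), in both genotypes nearer to the 4314 bases of Wwp2-201 than to the 2758 of Wwp2-204 or the 1996 of Wwp2-205. The mutant mice spread more widely, the shortest and the longest value of all 18 were both from mutant mice, and the groups overlapped.

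The difference in log2 relative length of Wwp2 was -0.04 with an SE of 0.032 (limma, adjusted p = 1.00), a 95% interval of -7.18% to 2.32% in length, and the exact permutation test gave p = 0.0954. None of the 11218 genes tested was called (0%), with 242 (2.16%) at an unadjusted p under 0.05. The 5 with the smallest p were Cdc25b, Rhbdf1, Dpp7, Usp32 and St7l, and none passed the threshold (limma, adjusted p = 1.00 for each). No member passed the threshold. Apart from Hecw2, whose implied length ran from 4611 to 8740 bases over all mice, the 95% intervals of the other members lay within -5.21% and 9.80%. Without mutant mouse 24-3 the difference of Wwp2 was 0.0003, so its sign rests on that mouse.

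**Figure D4:**
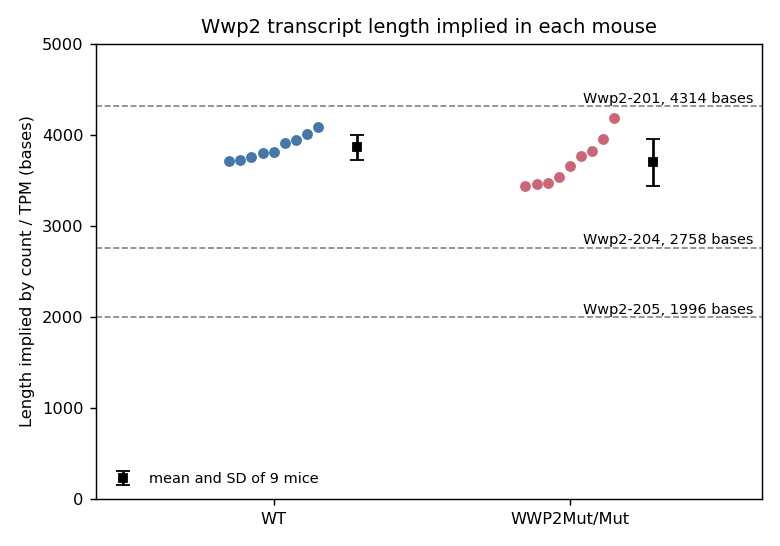
Transcript length of Wwp2 in bases implied by the ratio of count to TPM, for each of 9 mice per genotype, with the mean and SD as black squares and bars. Dashed lines mark the annotated lengths of 3 protein-coding transcripts at 4314, 2758 and 1996 bases. The means of 3863 (WT) and 3701 (WWP2Mut/Mut) bases both lie between the upper 2 lines, nearer to the uppermost.

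Genes that work with the family were described by 5 lists, 96 of whose 97 genes were tested. None of the 96 was called in either direction by edgeR (background 0.00403%), and none by DESeq2, with 2 of 96 at an unadjusted p under 0.05 against 3.66% of all genes.

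Both of those 2 belong to the other PY-motif and arrestin-type adaptors, of which 9 of 19 had a positive log2 fold change (median -0.00), 4 of 19 with library totals in place of TMM, and 2 of 19 with limma on log2(TPM + 1). Txnip, an arrestin-like protein that binds thioredoxin, had 146.5 ± 33.6 TPM in WT and 132.3 ± 44.99 TPM in WWP2Mut/Mut with a log2 fold change of -0.44 (edgeR, unadjusted p = 0.0112, adjusted p = 0.991). Arrdc4, an arrestin-related adaptor, had 2.66 ± 0.47 and 2.69 ± 0.37 TPM with 0.29 (edgeR, unadjusted p = 0.0251, adjusted p = 1.00). Next in this list, none at an unadjusted p under 0.05, came Ldlrad3 (-0.24) and Arrdc3 (-0.20) below 0 and Wbp1 (0.17) and N4bp3 (0.24) above it. The deposited TPM of Arrdc4 was nearly equal in the genotypes, and its exact permutation p was 0.869.

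Of the 18 other HECT ligases, 17 had a negative log2 fold change, with a median of -0.11. The smallest p-values below 0 belonged to Herc4 (-0.20), Hectd2 (-0.22) and Hace1 (-0.17). The 1 positive value was that of Hecw1 (0.36), itself a ligase of the NEDD4 family, which was at 0.11 TPM or less in every mouse. Without covariates and with lane as the only covariate, 8 of the 18 were negative, so this sign too changed with RNA concentration in the fit. The median RNA concentration was 98.3 ng/µl in WT and 187.4 ng/µl in WWP2Mut/Mut. The part of this imbalance was not tested. Ubiquitin itself and its E1 and E2 enzymes had 8 of 14 positive values and a median of 0.04. Among them were the ubiquitin-ribosomal fusion gene Rps27a (0.19) and the E2 Ube2l6 (0.14), and below 0 the E2 enzymes Ube2d3 (-0.13) and Ube2e1 (-0.09) and the E1 Uba1 (-0.10). With limma on log2(TPM + 1), 12 of these 14 were negative.

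The deubiquitinases and kinases that act against or upon the family had 10 of 12 negative values and a median of -0.04. Without covariates 5 of the 12 were negative, and with limma on log2(TPM + 1) all 12 were. The smallest p-values belonged to Sgk3 (-0.19), a kinase relative of the Nedd4l regulator Sgk1, Usp4 (-0.06) and Fyn (-0.06) below 0 and Uchl5 (0.09) and Sgk1 (0.04) above. Of the reported substrates 28 of 33 were negative with a median of -0.10, 22 of 33 without covariates and 32 of 33 with limma on log2(TPM + 1). Sox9 (-0.31), a cartilage and fibroblast transcription factor, Egr2 (-0.70), which WWP2 ubiquitinates in T cells, and Smad2 (-0.16) had the smallest p-values below 0, and the potassium channel genes Kcnh2 (0.13) and Kcnq1 (0.06) and the transcription factor Klf5 (0.59) those above. None of these passed the threshold, with an adjusted p of 1.00 for each in edgeR. The exact permutation test of TPM, unadjusted and without covariates, gave p = 0.0408 for Sox9 and 0.0431 for Egr2. Sox9 and Egr2 were measured at 0.27 to 0.66 TPM on average and Klf5 at 0.04 TPM or less. In the fit without covariates the medians of the 5 lists lay between -0.01 and 0.03.

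**Figure D5:**
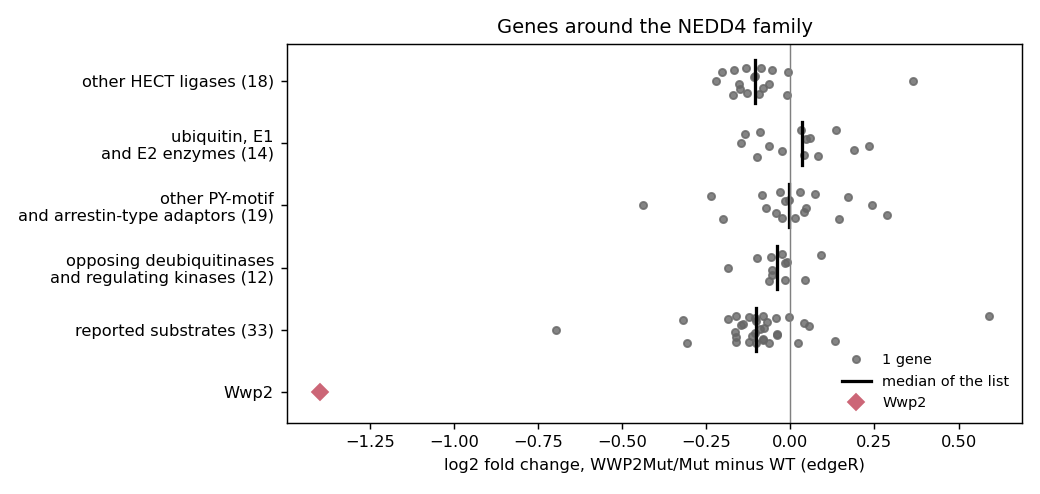
Log2 fold change, WWP2Mut/Mut minus WT, of each of 96 genes in 5 lists around the NEDD4 family (grey points, number of genes in brackets), with the median of each list as a black bar and Wwp2 as a red diamond. The list medians run from -0.11 to 0.04 and Wwp2 is at -1.40.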

How the data were processed

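Left ventricular RNA of 18 mice (9 WT, 9 WWP2Mut/Mut, separate animals) was analysed. Per the study's methods, the authors used STAR 2.5.2b for alignment (m38) and RSEM 1.2.31 for quantification of Ensembl 89 genes, and the library kit keeps strand. The deposited values are the authors' expected counts, of which 5.11% were not whole, and the authors' TPM, which sums to 671770 to 826381 per mouse. The sample sheet deposited by the authors gives lane, RNA concentration and the gene body value, a fraction for each mouse.

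Expected counts were rounded and tested with edgeR 4.0.16 (TMM, glmQLFit and glmQLFTest, R 4.3.3) over the 24804 genes whose counts summed to more than 1, with lane and centred RNA concentration as covariates and Benjamini-Hochberg adjustment. DESeq2 1.42.0 and limma 3.58.1 on log2(TPM + 1) were alternatives. Exact permutation tests used Python 3.11.15 with scipy 1.17.1 and numpy 2.4.6. Log2 CPM is log2(TMM CPM + 0.5). Relative effective length, count divided by TPM and centred per library, was tested with limma over 11218 genes with a mean TPM of 1 or more, and was turned into bases with 339 genes of 1 annotated transcript. Sequence and transcripts are from GENCODE M21 (GRCm38), and 51242 of 51435 rows were given a symbol. The fits were tested on simulated data. The Wwp2 values rest on 166 to 945 expected counts per mouse, which limits their precision.

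The genes and lists were chosen with earlier results of these data known. The genes named were the 10 members, any gene called, up to 3 genes per direction with the smallest p in each list, the 5 genes most like Wwp2 and the 5 with the smallest p for length; 1 of these is not reported here. Protein sequences were not used here.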

Additional observations from a re-analysis of the deposited data

Results flagged for a closer look

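Of the 40 groups of 9 mice examined for a sample far from the others (TPM and relative effective length of 10 genes in 2 genotypes), 1 was flagged, and chance flags about 1 in 20. In the Wwp2 level of the WWP2Mut/Mut mice, mouse 52-1 had 3 TPM and the next mouse 1.9 TPM, a gap of 0.608 of the whole range, over Dixon's critical value for 9 samples. This mouse had the highest gene body value of the mutants (0.0526) and a Wwp2 level still below the lowest WT mouse (3.83 TPM). Without it the log2 fold change of Wwp2 was -1.61 in place of -1.40. The part of coverage in its level was not tested.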

How the results depend on the processing

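Wwp2 stayed lower in WWP2Mut/Mut in all 31 alternatives, with log2 fold changes of -1.61 to -1.33 when each mouse was left out in turn (edgeR adjusted p 6.15e-06 to 0.0131) and -1.51 to -1.15 in the other 13 (adjusted p 3.90e-13 with DESeq2 to 0.0597). With the liver marker level as a covariate it was -1.28 and no longer passed the threshold, so that 0 genes were called. From 1 to 2 genes were called when mice were left out, the second being Ugt1a1, a bile pigment-conjugating enzyme, without WWP2Mut/Mut mouse 1-2 or without WT mouse 84-2. No other member and no gene of the 5 lists was called in any alternative, and the adjusted p of the 9 other members was 0.798 or higher throughout. Ndfip1 and Hecw2 were negative throughout (Ndfip1 from -0.34 to -0.06), and the sign of the other 7 changed. Without covariates the log2 fold changes were 0.0068 for Wwp1, 0.0604 for Itch, 0.0669 for Nedd4 and 0.0023 for Nedd4l. With lane only they were 0.0219 for Wwp1, 0.0814 for Itch, 0.0847 for Nedd4 and 0.0123 for Smurf1. With gene body coverage added they were 0.0135 for Wwp1, 0.0875 for Itch, 0.0935 for Nedd4, 0.0175 for Smurf1, 0.0147 for Smurf2 and 0.0012 for Ndfip2, and with the liver marker level 0.0233 for Nedd4l. Leaving out mice gave -0.1876 to 0.0564 for Itch, -0.1456 to 0.031 for Nedd4, -0.1021 to 0.0346 for Nedd4l and -0.1545 to 0.0059 for Smurf1, and without a change of sign -0.2031 to -0.0253 for Wwp1, -0.2759 to -0.0027 for Smurf2 and -0.1768 to -0.04 for Ndfip2, each nearest 0 without WT mouse 25-3. The cause was not tested. The count of neighbours in WT that differed was 5, and 7 with the longest annotated transcript as length. It was 3 to 6 with a mouse left out, and 3 without any WT mouse other than 25-3 and 43-3, where 8 mice give a larger smallest p. No gene was called for relative effective length in any alternative, and the difference of Wwp2 was -0.0671 to 0.0003 with a mouse left out and -0.07 to -0.03 otherwise. The stricter minimum of 5 TPM gave no value for Wwp2, whose mean is below it. No paired analysis was possible because the labels name no litter and no mouse identifier is shared between the genotypes. The part of the identifier after the hyphen (1, 2 or 3) occurs in both genotypes, its meaning is not given, and mice with 1 were in lanes 1 and 2 and the others in lanes 3 and 4. WT mice 45-1 and 45-3 share the first part, and each was left out in turn.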
